A study of Mus musculus with 661 samples.

Results

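The collagens described here are the genes of the count table whose symbol reads Col, a number, a and a number, and this rule found 44 among 45808 gene symbols. By the kind of assembly their chains form, 11 are fibrillar, 6 belong to the network of basement membranes, 3 form hexagonal networks, and 9 are fibril-associated collagens with interrupted triple helices (FACIT). Another 6 form beaded filaments, 2 are multiplexins, 4 are transmembrane and 3 fit none of these classes. They were measured in single cells that had been sorted as 6 stromal populations from the bone marrow of young and old mice and read by plate-based RNA sequencing. The values are followed across the populations, the 2 ages and the clusters that the study built by iterative clustering and guide-gene selection (ICGS).

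Collagens are secreted or membrane-bound proteins in which chains wind into a triple helix, and the classes differ in what the helices build. Fibrillar collagens give bone, cartilage and tendon their tensile strength, network-forming collagens carry basement membranes and the matrix around hypertrophic cartilage, and FACIT collagens sit on the surface of fibrils. In bone marrow, stromal cells of the endosteum lay down fibrils, and endothelial cells rest on a basement membrane whose make-up differs between arterioles and sinusoids.

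All cells came from wild-type C57BL/6 mice without treatment, about 2 months old (young, 3 mice) or about 24 months old (old, 4 mice), and their labels do not say which mouse a cell came from. From the endosteum the study sorted MSC-S (Sca-1+ and CD51+), multipotent osteoprogenitors (mOPr, PDGFRα+ and LepR-), osteoprogenitors (OPr, PDGFRα- and LepR-) and arteriolar endothelial cells (AEC, CD31+, Sca-1 high, CD105 low). From the central marrow it sorted MSC-L (PDGFRα+ and LepR+) and sinusoidal endothelial cells (SEC, CD31+, Sca-1 low, CD105 high). The endothelial cells were 84 AEC and 70 SEC of young mice and 82 AEC and 71 SEC of old mice. The mesenchymal cells were 53 young and 58 old MSC-L, 59 and 59 MSC-S, 26 and 26 mOPr, and 44 and 29 OPr. Median counts per young and old cell were 417873 and 424026 in AEC, 319565 and 306315 in SEC, 468565 and 357288 in MSC-L, 608696 and 703594 in MSC-S, 524176 and 451630 in mOPr, and 695499 and 781968 in OPr. Since no cell is tied to a mouse, each age of a population was 1 sample, and no test between groups was possible. Levels are counts of a gene summed over the cells of a group, per 1000000 nuclear counts of those cells (CPM). Intervals in brackets are 95% intervals, exact Poisson for levels and exact conditional binomial for log2 ratios. They cover counting error alone. Reads without molecular identifiers are not independent molecules, so the intervals may be too narrow even for that. A cell was said to carry a gene at 10 CPM or more, and collagens were ranked against each other per kb of merged exon, or of coding length where so named. The most abundant gene of a marker list is that of highest CPM, without regard to length. Library numbers in the titles fall in 3 ranges set apart by gaps, called ranges 1 to 3, which hold cells of both ages. Whether they are days of sorting or of sequencing is not known, so a ratio within a range compares cells of nearby library numbers and no more.

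All 6 MSC-L markers were at 10 CPM or more in young MSC-L, where they summed to 57359.5 CPM with *Cxcl12* the most abundant, and all 6 MSC-S markers were so in young MSC-S. The MSC-L markers also all reached 10 CPM in each other young group, with sums from 548 CPM in MSC-S to 6749 CPM in SEC. Both AEC and SEC carried 10 of 10 endothelial markers at either age, and the 5 sinusoidal markers summed to 17944 CPM in young SEC against 1977 CPM in young AEC. Young OPr carried 6 of 6 chondrocyte markers, which summed to 19072 CPM with *Comp* the most abundant. Of 8 osteoblast-lineage markers young OPr and young mOPr each had 7 at 10 CPM or more, with sums of 3512 and 5431 CPM led by *Ibsp* and *Spp1*. Young MSC-L had 6 of these 8 and a higher sum, 11391 CPM, so this list does not set OPr apart. Old OPr also carried 15 of 15 hematopoietic markers, which summed to 11080 CPM with *S100a9* the most abundant, and 7 or more of these 15 were found together in 8 old OPr.

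Of the 44 collagens, 38 reached 10 CPM in at least 1 of the 12 groups of age and population. *Col4a4*, *Col4a6*, *Col6a4*, *Col7a1*, *Col17a1* and *Col19a1* stayed under 10 CPM in all 12. *Col1a2*, *Col3a1*, *Col4a1*, *Col4a2*, *Col5a2*, *Col6a2*, *Col6a3* and *Col8a1* were at 10 CPM or more in all 12. A young OPr carried a median of 16 collagens (lowest 2, highest 21) and an old OPr 10 (lowest 0, highest 16). The median was 14 in MSC-S of both ages, 12 in MSC-L of both ages, and 15 and 13 in young and old mOPr. AEC carried a median of 5 and 4 and SEC 4 and 4. By the median, mesenchymal cells thus carried more collagens than endothelial cells, and single cells overlapped.

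The class that led differed between populations. Per kb of merged exon, fibrillar genes made 57.3% of all collagen in young MSC-S, 55.6% in young OPr and 67.5% in young mOPr. In young MSC-L no class passed 34.3% of this per-kb level, with beaded-filament genes at that share, fibrillar genes at 33.8% and basement membrane genes at 19.6%. By coding length, that of the protein-coding transcript with the longest coding sequence, fibrillar genes led there, at 42.3% against 31.2% for beaded-filament genes, so their order depends on the length chosen. Basement membrane genes made 78% by merged exons in young AEC and 61.1% in old AEC, and 53.1% and 61.1% in young and old SEC. By coding length they made 73.3%, 54.8%, 46% and 55.6% in these 4 groups and still led each. By merged exons FACIT genes held 32.4% of the per-kb level in young OPr, 26.3% in old OPr and at most 9.98% in any other group. Hexagonal-network genes rose from 6.76% in young MSC-L to 19.5% in old MSC-L, their highest share among the groups.

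**Figure D1:**
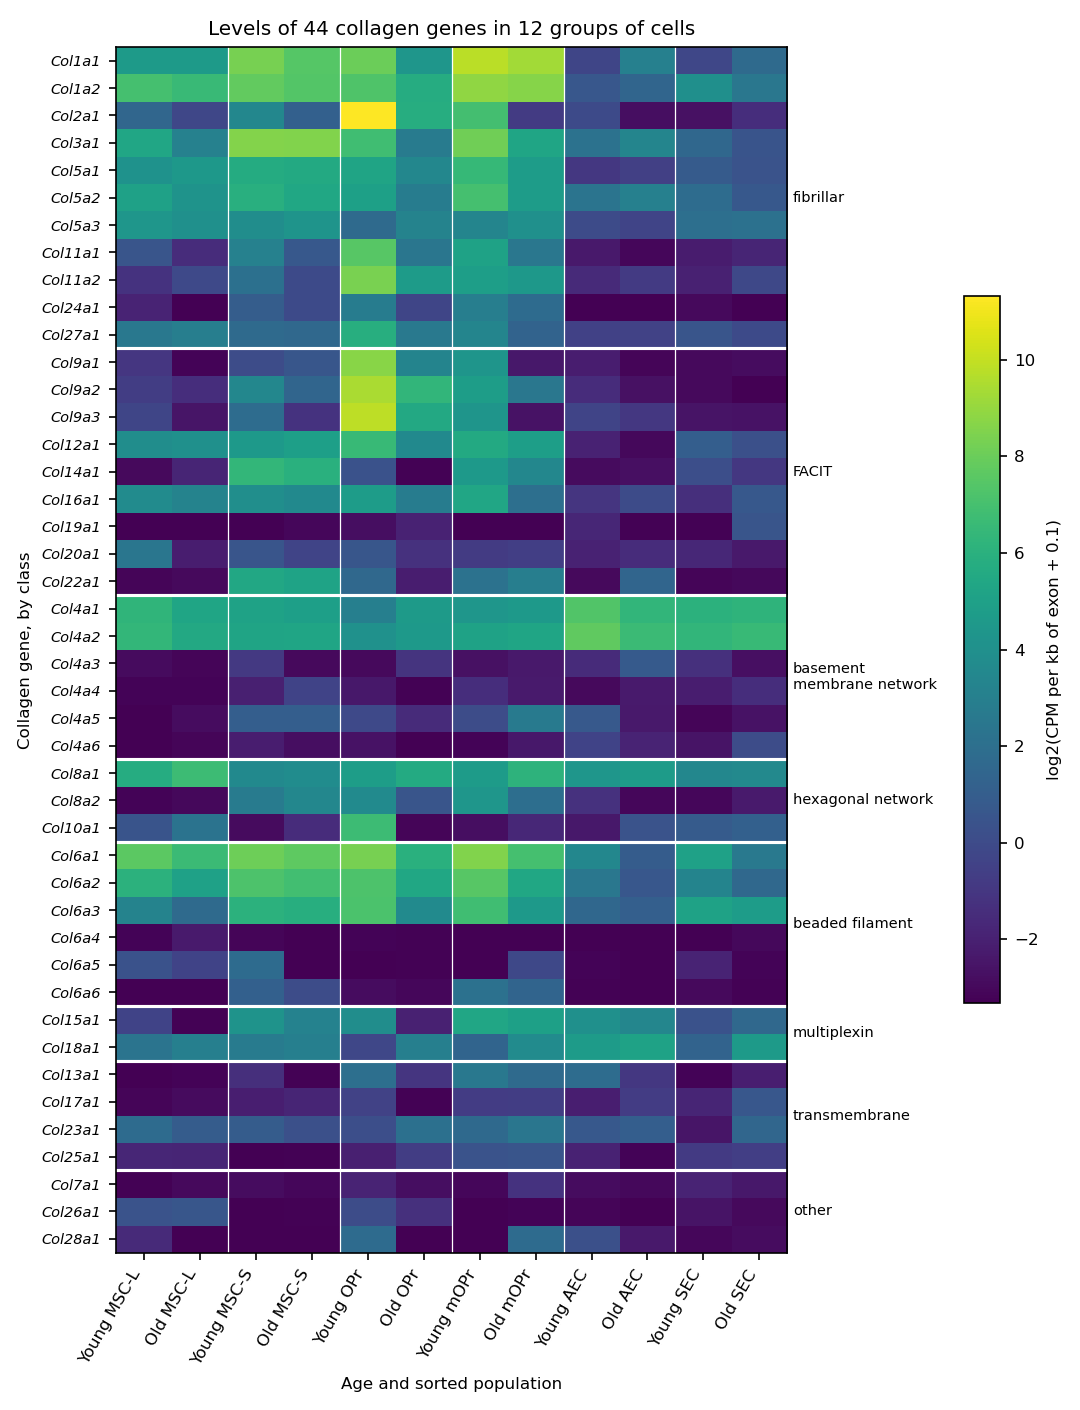
Levels of the 44 collagens by class (y axis) in the 12 groups of age and sorted population (x axis), with color giving log2 of CPM per kb of exon + 0.1, bright where high. *Col2a1* and *Col9a3* are brightest in young OPr, and *Col4a1* and *Col4a2* are the brightest genes of AEC.

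Among the fibrillar collagens, *Col1a1* and *Col1a2* encode the chains of type I collagen, the main fibril of bone. *Col1a2* was carried by 52 of 53 young MSC-L, with cells at lowest 7.43, median 1479 and highest 3884 CPM, and summed to 1599 CPM (1582 to 1615). *Col1a1* in the same cells ran at lowest 0, median 33.3 and highest 2078 CPM, and summed to 163 CPM (158 to 169). MSC-L thus carried *Col1a2* in almost every cell, and per kb of exon *Col1a1* was at 0.193 times *Col1a2*. Young MSC-S had both genes, *Col1a1* with cells at lowest 0, median 752 and highest 27426 CPM and a summed level of 2109 CPM, and *Col1a2* at 2724 CPM. The highest summed levels were those of young mOPr, 5909 CPM for *Col1a1* and 5845 CPM for *Col1a2*, yet 1 cell held 61.1% of the *Col1a1* counts and the median cell was at 1151 CPM. In young OPr the median cell had 2.77 CPM of *Col1a1* against a highest cell of 71879.7 CPM, so that 14 of 44 cells carried it. Endothelial cells were low, with *Col1a1* at 4.73 CPM in young AEC and 5.02 CPM in young SEC. Old AEC reached 53.4 CPM, of which 1 cell held 80.7% of the counts. *Col1a2* was higher in young SEC, at 192 CPM with 16 of 70 cells carrying it, and came to 49.9 CPM without the 8 young SEC that carried mesenchymal markers.

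*Col3a1* encodes type III collagen, which joins type I in the fibrils of soft connective tissue and vessel walls. In young MSC-S its cells ran at lowest 7.58, median 2594 and highest 25886 CPM, for a summed level of 3765 CPM (3744 to 3785), and in old MSC-S at lowest 0, median 1127 and highest 27052 CPM, for 3597 CPM (3578 to 3616). At least 96.6% of MSC-S of either age carried it. In young mOPr it was at 2826 CPM with 24 of 26 cells carrying it, and in old mOPr at 381 CPM with 17 of 26. MSC-L had a median of 9.13 CPM in young and 5.92 CPM in old cells, and 1 young cell held 57.4% of the counts. *Col3a1* thus set MSC-S and young mOPr above the other groups, with overlapping ranges of cells.

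*Col5a1*, *Col5a2* and *Col5a3* encode chains of type V collagen, which starts fibrils and limits their width. *Col5a2* was carried by all 26 young mOPr, with cells at lowest 32.5, median 674 and highest 5546 CPM and a summed level of 1228 CPM. It came to 570.5 CPM in young MSC-S, 315 CPM in young MSC-L and 309 CPM in young OPr. *Col5a1* was also highest in young mOPr, at 757 CPM in young mOPr, 438 CPM in young MSC-S, 312 CPM in young OPr and 148 CPM in young MSC-L. Old mOPr stood lower for both genes, with *Col5a1* at 235 CPM and *Col5a2* at 258 CPM. *Col5a3* was instead highest in young MSC-L, at 141 CPM with 37 of 53 cells carrying it, against 97.7 CPM in young MSC-S and 22.2 CPM in young OPr. AEC showed *Col5a2* without *Col5a1*: 49 of 166 AEC carried *Col5a2* alone, 2 *Col5a1* alone and 3 both.

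A set of collagens belongs to cartilage, where *Col2a1* encodes the main fibril, *Col11a1* and *Col11a2* chains of its core and *Col9a1*, *Col9a2* and *Col9a3* the FACIT collagen on its surface. *Col2a1* in young OPr ran at lowest 3.84, median 4395 and highest 109830 CPM over 44 cells, for a summed level of 23589 CPM (23534 to 23645), and 40 cells carried it. In old OPr its 29 cells ran at lowest 0, median 3.53 and highest 10034 CPM, for 509 CPM (499.9 to 519), with 1 cell holding 73.2% of the counts. The young OPr were high as a group and the old OPr low, although the highest old cell lay above the young median. *Col11a1* in young OPr ran at lowest 0, median 1128 and highest 9660.2 CPM and was carried by 37 of 44 cells, against 5 of 29 old OPr. *Col11a2* was carried by 35 of 44 young and 5 of 29 old OPr, and the Col9 genes by 27 to 29 young and 3 to 6 old. For each of these 6 genes the median old OPr was at or near 0, the highest being 3.53 CPM of *Col2a1*.

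These 6 cartilage genes tended to be carried by the same cells. At least 5 of the 6 were carried by 27 of 44 young OPr and 4 of 29 old OPr, by 2 of 26 young mOPr and none of 26 old mOPr. The same held for 3 young MSC-L, 1 young and 1 old MSC-S, and no endothelial cell. None of the 6 was carried by 2 young and 18 old OPr. Over the 73 OPr, Pearson correlations of log-scaled levels were 0.91 for *Col9a1* with *Col9a2*, 0.88 for *Col9a3* with *Col9a2* and 0.94 for *Col11a1* with *Col11a2*. Those cells share a sort, and each pair of levels shares the depth of its cell. Per kb of exon, *Col9a3* stood at 1.32 times *Col9a2* in young OPr and *Col9a1* at 0.59 times *Col9a2*.

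Outside OPr, *Col2a1* was at 1142 CPM in young mOPr, where 1 cell held 75.3% of the counts, and at 99.4 CPM in young MSC-S, where 3 of 59 cells carried it. Among young AEC a low level of *Col2a1* moved with library-number range: it was carried by 18 of 20 cells of range 1, at 26.6 CPM, and by none of the 64 cells of ranges 2 and 3. Old AEC, of which 20 lie in range 1, were lower over all cells, at a log2 ratio of -2.67 to young AEC. In young OPr it was 15373 CPM in range 1 and 29935 CPM in range 2. What part the range and the age have in the low level of *Col2a1* in AEC was not tested.

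*Col27a1* and *Col24a1* encode fibrillar collagens with a thinner distribution, the former known from cartilage. *Col27a1* was at 744 CPM in young OPr, with 33 of 44 cells carrying it, and at 78.4 CPM in old OPr with 10 of 29. In MSC-L it was at 75.2 CPM in young and 100.4 CPM in old cells, carried by 30 of 53 and 40 of 58, and it stood at 42.4 CPM in young MSC-S. *Col24a1* reached 56.8 CPM in young mOPr and 52.3 CPM in young OPr, and at most 14.6 CPM in young cells of the other populations. *Col10a1*, a hexagonal-network collagen of hypertrophic cartilage, was at 324 CPM in young OPr, where 9 of 44 cells carried it and 1 cell held 49.5% of its counts. Old OPr had 1 count of *Col10a1* in 29 cells, and no old OPr carried it.

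The other FACIT collagens each had a pattern of their own. *Col12a1*, which binds type I fibrils, was at 1422 CPM in young OPr, with cells at lowest 0, median 365 and highest 8229 CPM, and at 736 CPM in young mOPr. In MSC-L it was carried by 37 of 53 young and 31 of 58 old cells, and in MSC-S by 28 of 59 and 24 of 59. *Col14a1*, another partner of type I fibrils, was at 577 CPM (569 to 585) in young MSC-S and 442 CPM (435 to 448) in old MSC-S, where 29 and 36 of 59 cells carried it. MSC-L had 5 counts of *Col14a1* in 53 young cells and 25 in 58 old cells. *Col14a1* thus marked a part of MSC-S and 2 of 111 MSC-L. *Col22a1*, found at tissue junctions such as that of muscle and tendon, marked a smaller part: it was at 407 CPM in young and 332 CPM in old MSC-S, where 16 and 21 of 59 cells carried it. No MSC-L carried *Col22a1*. *Col16a1* was spread more evenly, from 90.1 CPM in young MSC-L to 270.3 CPM in young mOPr among the young mesenchymal groups. *Col20a1* reached 27.2 CPM in young MSC-L from 4 of 53 cells and under 10 CPM in the other groups, and *Col19a1* peaked at 9.31 CPM in old SEC from a single carrying cell.

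*Col4a1* and *Col4a2* encode the chains of the type IV collagen found in nearly all basement membranes. In young AEC *Col4a1* ran at lowest 0, median 779 and highest 7444 CPM over 84 cells, for 1209 CPM (1197 to 1220.2), and *Col4a2* at lowest 0, median 842 and highest 7371 CPM, for 1408 CPM (1395 to 1420.2). In young SEC *Col4a1* ran at lowest 3.21, median 224 and highest 4304 CPM, for 496 CPM, and *Col4a2* summed to 523 CPM. Young AEC were the highest group for both genes, and the ranges of AEC and SEC overlapped. Young MSC-L were somewhat above young SEC, at 579.8 CPM of *Col4a1* and 541 CPM of *Col4a2*, and all 53 young MSC-L carried *Col4a2*. Young MSC-S had 255 CPM of *Col4a1* and young OPr 59.6 CPM, the lowest of the 12 groups. Both genes were carried together by 75 of 84 young AEC and 62 of 70 young SEC. Per kb, *Col4a1* stood at 0.477 to 1.07 times *Col4a2* across the 12 groups.

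The other type IV genes were rare. *Col4a3* peaked at 16.9 CPM in old AEC, carried by 7 of 82 cells, and was under 5 CPM in the other groups. *Col4a4* reached at most 7.04 CPM, in old MSC-S. *Col4a5* was at 43.9 CPM in old mOPr from 3 of 26 carrying cells, near 13 CPM in MSC-S of both ages (13.0 young, 13.1 old) and at 10.6 CPM in young AEC. Young MSC-L had no count of *Col4a5*, below a limit of 0.132 CPM, and none of *Col4a6*. *Col4a6* peaked at 7.48 CPM in old SEC, from 1 carrying cell.

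*Col8a1* and *Col8a2* encode the short chains of type VIII collagen, a network former of vessel walls. *Col8a1* in old MSC-L ran at lowest 0, median 468 and highest 4721 CPM and summed to 828 CPM (816 to 841), the highest of the 12 groups. In young MSC-L it ran at lowest 0, median 184 and highest 2439.8 CPM and summed to 421 CPM (413 to 429.8). MSC-L of both ages were above MSC-S, which had 97.4 CPM in young and 108 CPM in old cells, while the cells overlapped. *Col8a1* was carried by 38 of 53 young and 49 of 58 old MSC-L, by 30 of 84 young and 43 of 82 old AEC, and by 7 of 70 young and 12 of 71 old SEC. *Col8a2* was missing from the same cells: young MSC-L had 1 count and old MSC-L 2, and no MSC-L carried it. The groups with most *Col8a2* were young mOPr at 90.8 CPM, young OPr at 58.1 CPM and old MSC-S at 49.5 CPM, the last with 60.9% of its counts in 1 cell. Of 118 MSC-S, 37 carried *Col8a1* alone, 14 *Col8a2* alone and 5 both. Of young SEC, the 8 cells that carried mesenchymal markers held *Col8a1* at 653 CPM and the other 62 at 1.47 CPM.

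*Col6a1*, *Col6a2* and *Col6a3* encode the chains of type VI collagen, whose beaded microfilaments surround cells. *Col6a1* in young MSC-L ran at lowest 4.21, median 739.6 and highest 2594 CPM and summed to 877 CPM, and in old MSC-L at lowest 0, median 271 and highest 1962 CPM and 436 CPM. Young MSC-S ran at lowest 7.91, median 889.6 and highest 6962 CPM and summed to 1203 CPM, young OPr to 1374 CPM and young mOPr to 1606 CPM. *Col6a2* was at 573, 1261, 1225 and 1519 CPM in young MSC-L, MSC-S, OPr and mOPr. Most young mesenchymal cells thus carried *Col6a1*, from 37 of 44 OPr to 58 of 59 MSC-S.

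*Col6a3* parted from its partners. In young MSC-L it was carried by 12 of 53 cells at 109 CPM, while 40 of the 53 carried *Col6a1* without it. In young SEC the order was the reverse: *Col6a3* ran at lowest 0, median 285 and highest 1778 CPM, summed to 413 CPM (405 to 422), and 54 of 70 cells carried it without *Col6a1*. Of old SEC 47 of 71 did so. Young AEC had *Col6a3* at 34.2 CPM in 14 of 84 cells, so most SEC carried *Col6a3* and most AEC did not. In the SEC of cluster E7, *Col6a3* was at 455 CPM in young and 462 CPM in old cells, and *Col6a1* at 21.6 and 0.387 CPM. *Col6a3* guided the endothelial clusters, so its level helped to decide which cells are in E7. Per kb, *Col6a3* stood at 0.0455 times *Col6a1* in young MSC-L, 0.251 times in young MSC-S and 1.04 times in young SEC. The remaining chains were rare. *Col6a5* peaked at 31.5 CPM in young MSC-S from 5 cells, *Col6a6* at 38.9 CPM in young mOPr from 1 cell, and *Col6a4* stayed under 1 CPM in all 12 groups.

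The multiplexins *Col15a1* and *Col18a1* encode collagens of basement membrane zones, and the end of the *Col18a1* product is endostatin. *Col18a1* in young AEC ran at lowest 0, median 31.2 and highest 1235 CPM and summed to 185 CPM, and in old AEC at lowest 0, median 77.8 and highest 2059 CPM and 241 CPM. Of young SEC 11 of 70 cells carried it, and old SEC had 177 CPM with 23 of 71. AEC of both ages and old SEC were thus above young SEC, and the median SEC of either age was at 0. In mesenchymal groups *Col18a1* lay between 5.39 CPM in young OPr and 94.7 CPM in old mOPr. *Col15a1* was highest in young mOPr, at 255 CPM with 17 of 26 cells carrying it, then in old mOPr at 199 CPM with 9 of 26. It was at 115 CPM in young MSC-S, 105 CPM in young AEC and 90.0 CPM in young OPr. Young MSC-L had 4.17 CPM, almost all in 1 cell, and old MSC-L 1 count.

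Transmembrane and unclassed collagens were scarce. *Col13a1*, known from the neuromuscular junction, reached 26.1 CPM in young mOPr, 18.2 CPM in young OPr and 16.2 CPM in young AEC, where 10 of 84 cells carried it. *Col23a1* was between 0.456 CPM in young SEC and 30.5 CPM in old mOPr. *Col25a1* was above 10 CPM in mOPr alone, at 15.8 CPM young and 17.2 CPM old, and *Col26a1* in MSC-L alone, at 10.1 CPM in young and 11.7 CPM in old cells. *Col28a1* reached 16.7 CPM in young OPr from 1 cell and 16.4 CPM in old mOPr from 2. *Col17a1*, a hemidesmosome component, peaked at 8.93 CPM in old SEC and *Col7a1*, which forms anchoring fibrils, at 3.44 CPM in old mOPr. These genes were carried by at most 10 cells of any group.

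**Figure D2:**
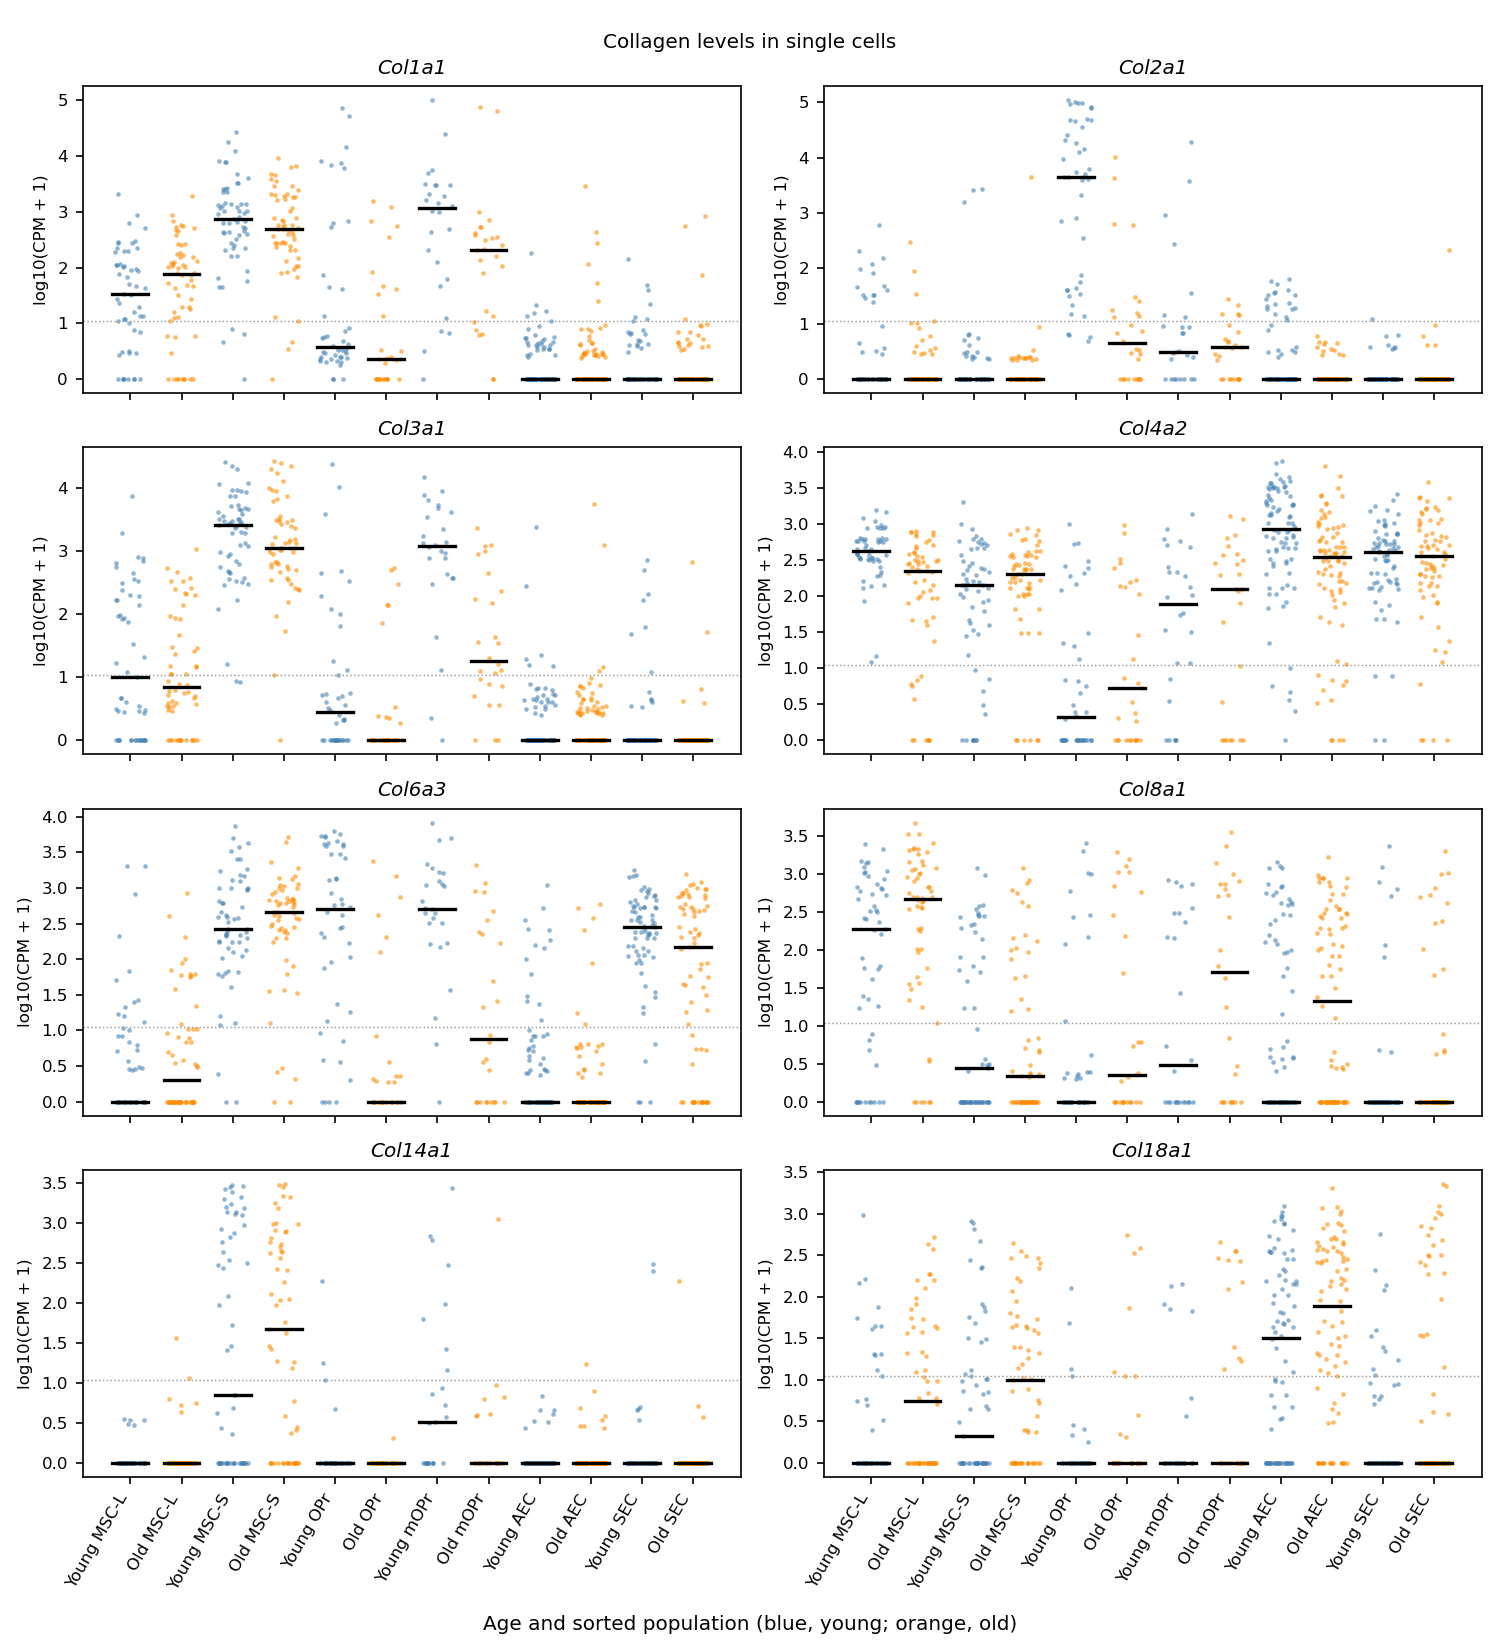
Levels of 8 collagens in single cells, with log10 of CPM + 1 on the y axis and the 12 groups of age and population on the x axis, each point a cell, each bar the median, blue for young and orange for old, and a dotted line at 10 CPM. *Col6a3* is carried by most SEC and few AEC, and *Col8a1* by most MSC-L and few SEC.

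Chains that assemble together were not always expressed at like levels. Per kb of merged exon, *Col1a1* stood at 0.193 times *Col1a2* in young MSC-L and 0.255 times in old MSC-L, but at 1.47 times in young MSC-S and 1.91 times in young mOPr. With the length of the longest coding transcript in place of merged exons the same ratios were 0.0921, 0.121, 0.698 and 0.912, so whether *Col1a1* exceeds *Col1a2* in MSC-S and mOPr depends on the length chosen. Of 53 young MSC-L 16 carried *Col1a2* alone and 1 *Col1a1* alone. *Col6a1* stood at 1.45 to 2.91 times *Col6a2* in young MSC-L, young MSC-S, young OPr and old OPr by merged exons. By coding length the young MSC-S and old OPr ratios were 0.919 and 0.736. *Col11a1* stood at 0.55 times *Col11a2* in young OPr and at 2.02 times in young MSC-S.

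Between the young LepR+ and Sca-1+ mesenchymal cells, 34 collagens had at least 100 counts in at least 5 cells. Of these 5 were at least 2-fold higher in MSC-L than in MSC-S, against 28.8% of 13645 genes, and 19 at least 2-fold lower, against 16.8%. Their median log2 ratio was -1.48, and that of all genes 0.32. Lower in MSC-L were *Col14a1* (log2 ratio -8.89), *Col22a1* (-8.49), *Col15a1* (-4.49), *Col1a1* (-3.68), *Col3a1* (-3.26), *Col6a3* (-2.90), *Col11a1* (-2.58), *Col5a1* (-1.56) and *Col6a2* (-1.14). Higher in MSC-L were *Col8a1* (2.10), *Col4a1* (1.18), *Col4a2* (1.14), *Col20a1* (1.81) and *Col26a1*, which had 230 counts in MSC-L, where 1 cell carried it, and none in MSC-S. Network genes went both ways: *Col8a2*, with 1 count in MSC-L (-9.40 without the pseudocount, -14.70 to -6.92 by counting error), *Col4a5*, with none, and *Col4a3*, with 8, were at least 2-fold lower. *Col20a1* was at -2.28 and 3.31 in library-number ranges 1 and 2 and at 0.18 without the cell of each group with most counts, and at -1.18 in cells of matching cluster. *Col4a3*, at -1.98 over all cells, was at -0.15 and 0.01 under the last 2 settings. These ratios use a pseudocount of 1 CPM, which for *Col14a1* and *Col22a1* with 5 and 3 counts in MSC-L draws the ratio toward 0. Without it the *Col22a1* ratio was -11.59 (counting interval -13.87 to -10.05) and the *Col14a1* ratio -11.36 (-12.99 to -10.14). In library-number ranges 1 and 2 the ratio was -4.93 and -2.78 for *Col3a1*, -5.28 and -2.55 for *Col6a3*, and 2.30 and 0.89 for *Col4a1*. Without the pseudocount it was -11.99 (-15.04 to -10.14) and -10.74 (-13.02 to -9.19) for *Col14a1*, with 2 and 3 counts in MSC-L. For *Col15a1* it was -9.43 (-14.74 to -6.95) in range 1, with 1 count in MSC-L, and with the pseudocount -4.16 in range 2. *Col22a1* had no count in MSC-L of range 1, against 1796 in MSC-S. In range 1 the ratio was 2.69 for *Col8a1*, and as a mean over cells -5.16 for *Col15a1*. Without the cell of each group with most counts it was -4.29 for *Col3a1*, -3.85 for *Col6a3* and -6.20 for *Col15a1*. The 10 collagens that did not pass the count filter are not in these counts. With no such filter 8 collagens were at least 2-fold higher, in range 2 alone 3, and without those top cells 3.

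Between young AEC and young SEC only range 3, which holds 24 young AEC and all 70 young SEC, allowed a comparison within a range. There 22 collagens passed the count filter and 22 did not. In AEC 7 were at least 2-fold higher, against 17.3% of 11908 genes, and 11 at least 2-fold lower, against 24.9%, with a median log2 ratio of -1.11 over the collagens and -0.10 over all genes. *Col18a1* (log2 ratio 3.10), *Col4a2* (1.75) and *Col4a1* (1.71) were higher in AEC and *Col6a3* lower (-2.10). These 4 met the rule for naming given below. Larger ratios that did not meet it were those of *Col4a5* (4.96), *Col28a1* (4.75), *Col23a1* (4.06) and *Col15a1* (3.44), carried by 3, 3, 4 and 10 of 24 young AEC. In the other direction *Col1a2* was at -6.34 and *Col12a1* at -4.25, carried by 16 and 6 of 70 young SEC. Cluster E1, which the study reads as doublets, held 9 of the young SEC. Over both ages these genes were at 970 and 171 CPM in E1 and at 31.1 and 0.858 CPM in the sinusoidal cluster E7. The part of E1 in these ratios was not tested. In range 3 all 24 young AEC carried *Col4a1* and *Col4a2*, and 8 carried *Col18a1*. Restricted to cells whose cluster matched their sort, *Col4a2* fell to 0.77, *Col18a1* came to 4.51 and *Col6a3* to -6.73. *Col18a1* and *Col6a3* guided the endothelial clusters, so for these 2 genes the restriction selects cells by the level it compares. Without the cell of each group with most counts *Col6a3* was at -3.03. The count of higher collagens was 4 in thinned cells, 4 without those top cells, 4 in cells of matching cluster and 11 without a filter, and the count of lower ones was 6 in thinned cells and 6 without the cells that carried markers of another lineage. Both of these comparisons share their young cells with the comparisons of age.

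With age the summed collagen level fell most in OPr, from 49108 CPM (49028 to 49189) in young to 4238 CPM (4210.0 to 4265) in old cells. The log2 ratio of these sums was -3.53. In mOPr the sum was 25622 and 13755 CPM in young and old cells, in MSC-S 15667 and 12627, in MSC-L 6416 and 4634, in AEC 3403 and 2185, and in SEC 2156 and 2098. The ratio in MSC-S changed sign between ranges, from 0.65 in range 1 to -0.83 in range 2. In AEC it was -1.53, -0.27 and -0.87 in ranges 1, 2 and 3, and in mOPr -1.57 and -0.87 in ranges 1 and 2. In SEC it was -0.04 over all cells and changed sign to 0.06 as a mean over cells, 0.06 in thinned cells, 0.03 in cells of E7 and 0.30 without the cells that carried markers of another lineage.

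In old MSC-L 25 collagens passed the count filter and 19 did not. Of the 25, 2 were at least 2-fold higher than in young MSC-L, against 13.9% of 13143 genes, and 7 at least 2-fold lower, against 11.5%, with medians of -0.52 over the collagens and 0.01 over all genes. A gene is named here when it was at least 2-fold apart, had 1000 counts over both ages, was carried by at least 25% of the cells of either age, and kept its direction in each library-number range that held 5 or more cells of both ages. In MSC-L these were the type VI genes *Col6a1* (-1.01) and *Col6a2* (-1.04), both close to the 2-fold bound. *Col6a1* fell short of it in thinned cells (-0.92), in range 2 (-0.99) and as a mean over cells (-0.99), and *Col6a2* in range 1 (-0.81). The median cell went from 739.6 to 271 CPM of *Col6a1* and from 330.0 to 172 CPM of *Col6a2*, with overlapping ranges. *Col8a1* moved the other way, to 0.97 over all MSC-L and 0.25 in range 1. *Col4a2* stood at -0.86, and *Col1a1* at -0.01 over all MSC-L and 0.73 in range 1. Osteoblast-lineage markers summed to 11391 CPM in young and 7341 CPM in old MSC-L (6 and 6 of 8 at 10 CPM or more, led by *Ibsp* and *Spp1*, none at 0), and hematopoietic markers to 50.1 and 156 CPM (2 and 4 of 15, led by *Cybb* and *Lyz2*, *Cd52*, *Tyrobp* and *S100a8* at 0 in young cells). Their part was not tested. Cluster M2 held 12 of 53 young and 23 of 58 old MSC-L, and M1 39 and 33. From young to old, *Col8a1* went from 366 to 824 CPM within M1 and from 729 to 907 CPM within M2. *Col6a1* fell from 892 to 434 CPM within M1 and from 948 to 477 CPM within M2, and *Col6a2* from 521 to 265 and from 878 to 310.3 CPM. These directions thus held within either cluster. The count of higher collagens was 1 in thinned cells and 4 without the top cell of each group, and that of lower ones 4 in range 1 alone and 12 without a filter.

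In MSC-S 34 collagens passed and 10 did not. Of the 34, 1 was at least 2-fold higher in old cells, against 8.65% of 13381 genes, and 10 at least 2-fold lower, against 11.1%, with medians of -0.37 and -0.06. Named were *Col11a1* (-2.38) and *Col15a1* (-1.03). *Col11a1* was carried by 16 of 59 young and 5 of 59 old MSC-S, and its ratio was -0.60 in range 1, -3.33 in range 2, -1.34 as a mean over cells and -1.49 in thinned cells. *Col15a1* was at -0.30 in range 1, -1.34 in range 2 and -0.85 without the top cells. The abundant fibrillar genes of MSC-S moved up with age in range 1 and down in range 2. Over all MSC-S the ratio was -0.07 for *Col3a1*, -0.36 for *Col1a2*, -0.86 for *Col1a1*, -0.09 for *Col5a1* and -0.47 for *Col5a2*. In range 1 the same genes were at 0.92, 0.66, 0.57, 0.50 and 0.25, and in range 2 at -0.65, -1.04, -1.75, -0.38 and -0.80. Of markers, the 6 chondrocyte genes summed to 5310.1 CPM in young and 2781 CPM in old MSC-S (5 and 4 at 10 CPM or more, *Comp* the most abundant, *Matn3* at 0 in young cells), and the 8 osteoblast-lineage genes to 1033 and 191 CPM (4 and 4, led by *Spp1* and *Ibsp*, none at 0). The 6 MSC-L markers rose from 548 to 1209 CPM (6 and 4, *Cxcl12* the most abundant, none at 0). Clusters shifted too: M9 held 10 old and no young MSC-S, M15 5 young and no old, and M16 14 young and 21 old. The part of these lists and clusters in the ratios was not tested. The single higher gene was *Col4a4*, carried by 2 young and 3 old MSC-S, and no gene was so without the top cell of each group, in thinned cells or in range 2, against 6 in range 1 and 2 as a mean over cells. The count of lower genes was 5 as a mean over cells, 3 in thinned cells, 4 in range 1 and 6 in cells of matching cluster.

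OPr changed most. Of 35 collagens that passed, 28 were at least 2-fold lower in old cells, against 19.6% of 13418 genes, and 5 at least 2-fold higher, against 25.6%, with medians of -2.79 over the collagens and 0.14 over all genes. Another 9 did not pass the count filter. All 8 FACIT genes that passed were lower, as were 10 of 11 fibrillar genes and 3 of 3 beaded-filament genes. Among the 20 named lower genes, the cartilage set stood at -5.53 for *Col2a1*, -5.09 for *Col11a1*, -3.64 for *Col11a2*, -5.42 for *Col9a1*, -3.14 for *Col9a2*, -4.35 for *Col9a3* and -3.23 for *Col27a1*. The type I, III and V genes stood at -3.62 for *Col1a1*, -1.54 for *Col1a2*, -4.07 for *Col3a1*, -1.75 for *Col5a1* and -2.19 for *Col5a2*. The type VI genes *Col6a1*, *Col6a2* and *Col6a3* stood at -2.33, -1.77 and -3.48. The others were *Col12a1* (-2.94), *Col16a1* (-1.90), *Col8a2* (-3.07), *Col15a1* (-5.52) and *Col24a1* (-3.00). Named higher were *Col4a1* (1.61), carried by 7 of 44 young and 14 of 29 old OPr, and *Col5a3* (1.46), carried by 7 and 9.

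The make-up of the sort differed between young and old OPr. Young OPr held 15 of 44 cells in cluster M3, which carried 73.9% of their collagen counts, and old OPr 1 of 29. Of old OPr 10 cells lay in the MSC-L-like clusters M1 and M2, against 3 young, and MSC-L markers summed to 5589 CPM in young and 22695 CPM in old OPr, with 6 of 6 at 10 CPM or more at either age and *Cxcl12* the most abundant. The 6 chondrocyte markers summed to 19072 and 2748 CPM, all at 10 CPM or more at either age. In the 9 old OPr that carried markers of another lineage, all 44 collagens together made 22.4 CPM. Mural markers rose from 724 to 2103 CPM (3 and 4 of 6, led by *Cspg4* and *Acta2*, *Kcnj8* at 0 in young cells), and sinusoidal markers from 590.2 to 1108 CPM (2 and 3 of 5, *Vcam1* the most abundant, none at 0). Mesenchymal markers fell from 6936 to 3101 CPM (9 and 9 of 10, led by *Dcn* and *Lepr*, *Twist2* at 0 in young cells), and MSC-S markers rose from 121 to 267 CPM (2 and 4 of 6, *Pdgfra* the most abundant, *Clec3b* at 0 in young cells). What part these shifts have in the age ratios was not tested.

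Without clusters M3 and M4, an alternative chosen after seeing the data, the summed ratio was -2.54. *Col27a1* then stood at -1.04, *Col6a3* at -2.39 and *Col4a1* at 0.57, the last no longer 2-fold, while *Col11a1* and *Col11a2* came to -8.46 and -7.79, *Col2a1* to -7.23, *Col9a3* to -5.12 and *Col8a2* to -4.79. *Col24a1* then had 1 count in old OPr, a ratio without the pseudocount of -8.76 (-14.06 to -6.27). *Col1a1*, *Col1a2*, *Col3a1*, *Col5a1* and *Col15a1* were at -4.52, -2.28, -4.97, -2.44 and -6.39. Restricted to cells of M3 to M5, *Col5a3*, with 2 old counts, turned to -7.05 (-10.10 to -5.19) without the pseudocount, *Col4a1* came to 3.17, *Col1a2* to -3.61, *Col5a1* to -2.99, *Col5a2* to -5.31, *Col6a1* to -2.94, *Col6a2* to -2.80, *Col12a1* to -4.31, *Col8a2* to -1.87 and *Col15a1* to -2.92.

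With M1, M2 and the cells of another lineage left out, also chosen after seeing the data, *Col5a3*, again with 2 old counts, was at -5.89 (-8.94 to -4.03) without the pseudocount. *Col4a1* was then at 3.73, *Col2a1* at -3.95, *Col9a1* at -3.85, *Col9a2* at -1.60, *Col9a3* at -2.76, *Col11a1* at -3.51 and *Col11a2* at -2.05. *Col1a1*, *Col1a2*, *Col5a1* and *Col5a2* were then at -2.96, -2.96, -3.24 and -4.80, and *Col6a3*, *Col8a2*, *Col15a1*, *Col24a1* and *Col27a1* at -2.51, -1.63, -4.61, -1.57 and -2.24. *Col16a1* lost its 2-fold difference there, at -0.57. The 20 genes named lower in OPr were below 0 in all alternatives run. The rule for naming asks for the same direction in each library-number range, so the single-range alternatives could not differ in sign. *Col2a1*, *Col3a1*, *Col27a1* and the Col9 and Col11 genes guided the mesenchymal clusters, so leaving out clusters selects cells by these genes.

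Library-number ranges also moved the OPr ratios. In range 1, which holds 13 young and 10 old OPr, the ratio of *Col2a1* was -11.74, and in range 2 it was -5.13. The other 5 cartilage genes had 0 to 4 counts each in old OPr of range 1. *Col9a1* had no count there, against 15452 in young OPr. The ratio without the pseudocount was -13.69 (-18.99 to -11.21) for *Col9a2* with 1 old count and -12.51 (-15.55 to -10.66) for *Col11a2* with 2. It was -12.78 (-15.05 to -11.23) for *Col9a3* with 3 and -11.61 (-13.49 to -10.26) for *Col11a1* with 4, and in range 2 *Col11a1* was at -4.72 with the pseudocount. *Col15a1* and *Col24a1* had no count in old OPr of range 1 either, against 1135 and 273 in young, and in range 2 were at -5.12 and -2.88. *Col4a1* was at 1.20 and 3.36 in ranges 1 and 2, *Col5a3* at 2.43 and 0.89, *Col5a2* at -3.60 and -1.46, *Col6a3* at -2.28 and -4.37, and *Col6a2* at -1.01 and -2.29. *Col3a1* was at -3.36 and -4.75, *Col8a2* at -3.86 and -2.31, *Col27a1* at -4.02 and -3.08 and *Col1a2* at -1.93 and -0.95. Single cells mattered as well. Without the cell of each age with most counts of the gene, *Col2a1* was at -7.25, *Col9a1* at -6.10, *Col9a2* at -4.02, *Col9a3* at -5.22, *Col11a1* at -5.79, *Col24a1* at -4.60, *Col16a1* at -2.70, *Col12a1* at -3.56 and *Col3a1* at -3.48. As a mean over cells *Col1a1* and *Col1a2* were at -4.59 and -2.19, *Col8a2* at -2.37, and in thinned cells *Col1a1*, *Col1a2*, *Col15a1* and *Col16a1* were at -4.46, -2.14, -4.89 and -1.32. The number of collagens at least 2-fold higher, 5, was 3 in thinned cells, 2 in range 1, 2 in cells of matching cluster, and 3 and 2 in the alternatives without M3 and M4 and without M1, M2 and other lineages.

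In mOPr 32 collagens passed and 12 did not. Of the 32, 16 were at least 2-fold lower in old cells, against 19.8% of 11237 genes, and 3 at least 2-fold higher, against 24.7%, with medians of -0.93 and 0.11. Named lower were *Col2a1* (-7.68), *Col16a1* (-3.30), *Col3a1* (-2.89), *Col11a1* (-2.63), *Col8a2* (-2.33), *Col6a3* (-2.28), *Col5a2* (-2.25), *Col6a2* (-2.08), *Col27a1* (-2.0), *Col5a1* (-1.69) and *Col6a1* (-1.54). Named higher were *Col18a1* (2.36), carried by 5 of 26 young and 12 of 26 old mOPr, and *Col8a1* (1.46), carried by 11 and 15. Over all mOPr *Col1a1* was at -0.50 and *Col1a2* at -0.21, in range 1 they were at -2.60 and -1.30, as a mean over cells *Col1a2* was at 0.03, and the highest young cell held 61.1% and 49.5% of the young counts. Here too the clusters shifted: 14 of 26 old mOPr lay in M1 and M2 against 2 of 26 young, and 16 young mOPr lay in M6 to M16 against none of the old. MSC-L markers, with 6 of 6 at 10 CPM or more at either age and *Cxcl12* the most abundant, summed to 998 CPM in young and 21133 CPM in old mOPr. Chondrocyte markers fell from 8633 to 569 CPM (5 and 2 of 6 at 10 CPM or more, *Comp* the most abundant, none at 0). Mural markers rose from 460.2 to 2049.6 CPM (3 and 4 of 6, led by *Cspg4* and *Acta2*, *Rgs5* at 0 in young cells), and osteoblast-lineage markers from 5431 to 9321 CPM (7 and 7 of 8, *Spp1* the most abundant, none at 0). MSC-S markers rose from 681 to 1447 CPM (5 and 6 of 6, *Pdgfra* the most abundant, none at 0), and sinusoidal markers from 429 to 1229 CPM (2 and 2 of 5, led by *Il6st* and *Vcam1*, *Flt4* at 0 in young cells). The part of these markers in the ratios was not tested.

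Restricted to M3 to M5, with 8 young and 12 old mOPr, *Col8a1* turned to -0.53 and *Col8a2* to 0.62, while *Col3a1* came to -2.04, *Col6a1* to -0.87, *Col6a2* to -1.21, *Col16a1* to -5.05 and *Col27a1* to -4.08. Without M1, M2 and cells of another lineage *Col8a1* was at -0.30, *Col6a3* at -2.92, *Col16a1* at -4.13 and *Col27a1* at -5.04, and the summed collagen ratio, -0.90 in all mOPr, was -0.24. In ranges 1 and 2 *Col2a1* was at -1.81 and -8.65, *Col16a1* at -1.76 and -4.25, *Col8a2* at -1.0 and -3.30, *Col6a1* at -0.83 and -2.08, *Col6a2* at -1.50 and -2.58, *Col18a1* at 1.81 and 3.21, *Col3a1* at -3.74 and -2.46, *Col5a2* at -2.86 and -2.14, and *Col27a1* at -1.32 and -2.42. *Col11a1* had 2 old counts in range 1, a ratio of -9.22 (-12.27 to -7.37) without the pseudocount, and was at -2.41 in range 2. Without the cell with most counts *Col2a1* was at -5.92 and *Col8a2* at -3.05. The 3 higher collagens were 5 in thinned cells and 6 without a filter.

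In AEC 29 collagens passed and 15 did not. Of the 29, 7 were at least 2-fold higher in old cells, against 9.33% of 14042 genes, and 10 at least 2-fold lower, against 11.7%, with medians of 0.05 and -0.03. Named were the type IV genes *Col4a1* (-1.04) and *Col4a2* (-1.05). The median cell went from 779 to 239 CPM of *Col4a1* and from 842 to 346 CPM of *Col4a2*. Old AEC were lower as a group, with overlapping cells. Sinusoidal markers moved too, from 1977 to 1188 CPM (5 and 4 of 5 at 10 CPM or more, *Il6st* the most abundant, none at 0), as did hematopoietic markers, from 105 to 54.3 CPM (2 and 2 of 15, *Lcp1* the most abundant, *Cd52* and *Cybb* at 0 in young cells), and clusters, with 50 of 84 young and 61 of 82 old AEC in E3 and E4. What part these have in the *Col4a1* and *Col4a2* ratios was not tested. In ranges 1, 2 and 3 the ratio was -2.07, -0.64 and -1.59 for *Col4a1* and -2.02, -0.69 and -1.41 for *Col4a2*. Among the genes past 2-fold that the rule did not name, *Col1a1* (3.25), *Col22a1* (4.30) and *Col3a1* (1.16) had 80.7%, 96.2% and 85.7% of their old counts in 1 cell, and without the top cell of each group *Col1a1* was at 2.01, *Col22a1* at 0.61 and *Col3a1* at 1.52. Without cells carrying markers of another lineage *Col1a1* was at 2.11. In ranges 1, 2 and 3 it was at -2.03, 5.62 and 4.36, and *Col3a1* at -4.90, 6.41 and 2.18. *Col22a1* was at 0.97 in range 2 and 6.32 in range 3. The 7 higher collagens were 3 in range 1 and 4 without the top cells, and the 10 lower ones 5 in thinned cells, 1 in range 2 and 4 in range 3.

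In SEC 23 collagens passed and 21 did not. Of the 23, 7 were at least 2-fold higher in old cells, against 13.1% of 12982 genes, and 6 at least 2-fold lower, against 7.56%, with medians of 0.11 and 0.05. *Col18a1* was the named gene (3.31, and 3.38 without the pseudocount, 3.23 to 3.54 by counting error). Of the old SEC, 44 of 71 lay in the sinusoidal cluster E7 with *Col18a1* at 9.52 CPM, and the other 27 had it at 454 CPM, carried by 21 of them. Of young SEC 59 of 70 lay in E7, with 12.4 CPM. Within E7 the ratio was -0.35, but *Col18a1* guided the endothelial clusters, so its level helped to decide which cells are in E7. Arteriolar markers summed to 312 CPM in young and 1107 CPM in old SEC, with 3 and 6 of 6 at 10 CPM or more, *Ly6a* the most abundant and none at 0, and hematopoietic markers to 179 and 509.9 CPM (2 and 9 of 15, led by *Lcp1* and *Lyz2*, *Cybb* at 0 in old cells). Osteoblast-lineage markers summed to 1222 and 476 CPM (3 and 4 of 8, led by *Ibsp* and *Spp1*, *Bglap* and *Bglap2* at 0 at both ages). MSC-L markers fell from 6749 to 4248 CPM (6 and 6 of 6, *Cxcl12* the most abundant, none at 0), mesenchymal markers from 898 to 583 CPM (7 and 7 of 10, *Lepr* the most abundant, *Twist2* at 0 in old cells) and sinusoidal markers from 17944 to 13479.5 CPM (5 and 5 of 5, *Stab2* the most abundant, none at 0). MSC-S markers rose from 298 to 856 CPM (3 and 3 of 6, *Ly6a* the most abundant, *Dpt* at 0 in old cells), and mural markers from 661.2 to 845 CPM (2 and 5 of 6, *Kcnj8* the most abundant, *Cspg4* at 0 in young cells). Their part in the *Col18a1* ratio was not tested. *Col6a3* stood at -0.37 over all SEC and at 0.02 within E7, a cluster that it also guided. Over all SEC *Col4a1* stood at 0.15 and *Col4a2* at 0.24. In cells of E7 the 7 higher collagens were 2 and the 6 lower ones 3, and thinned cells gave 3 higher ones.

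**Figure D3:**
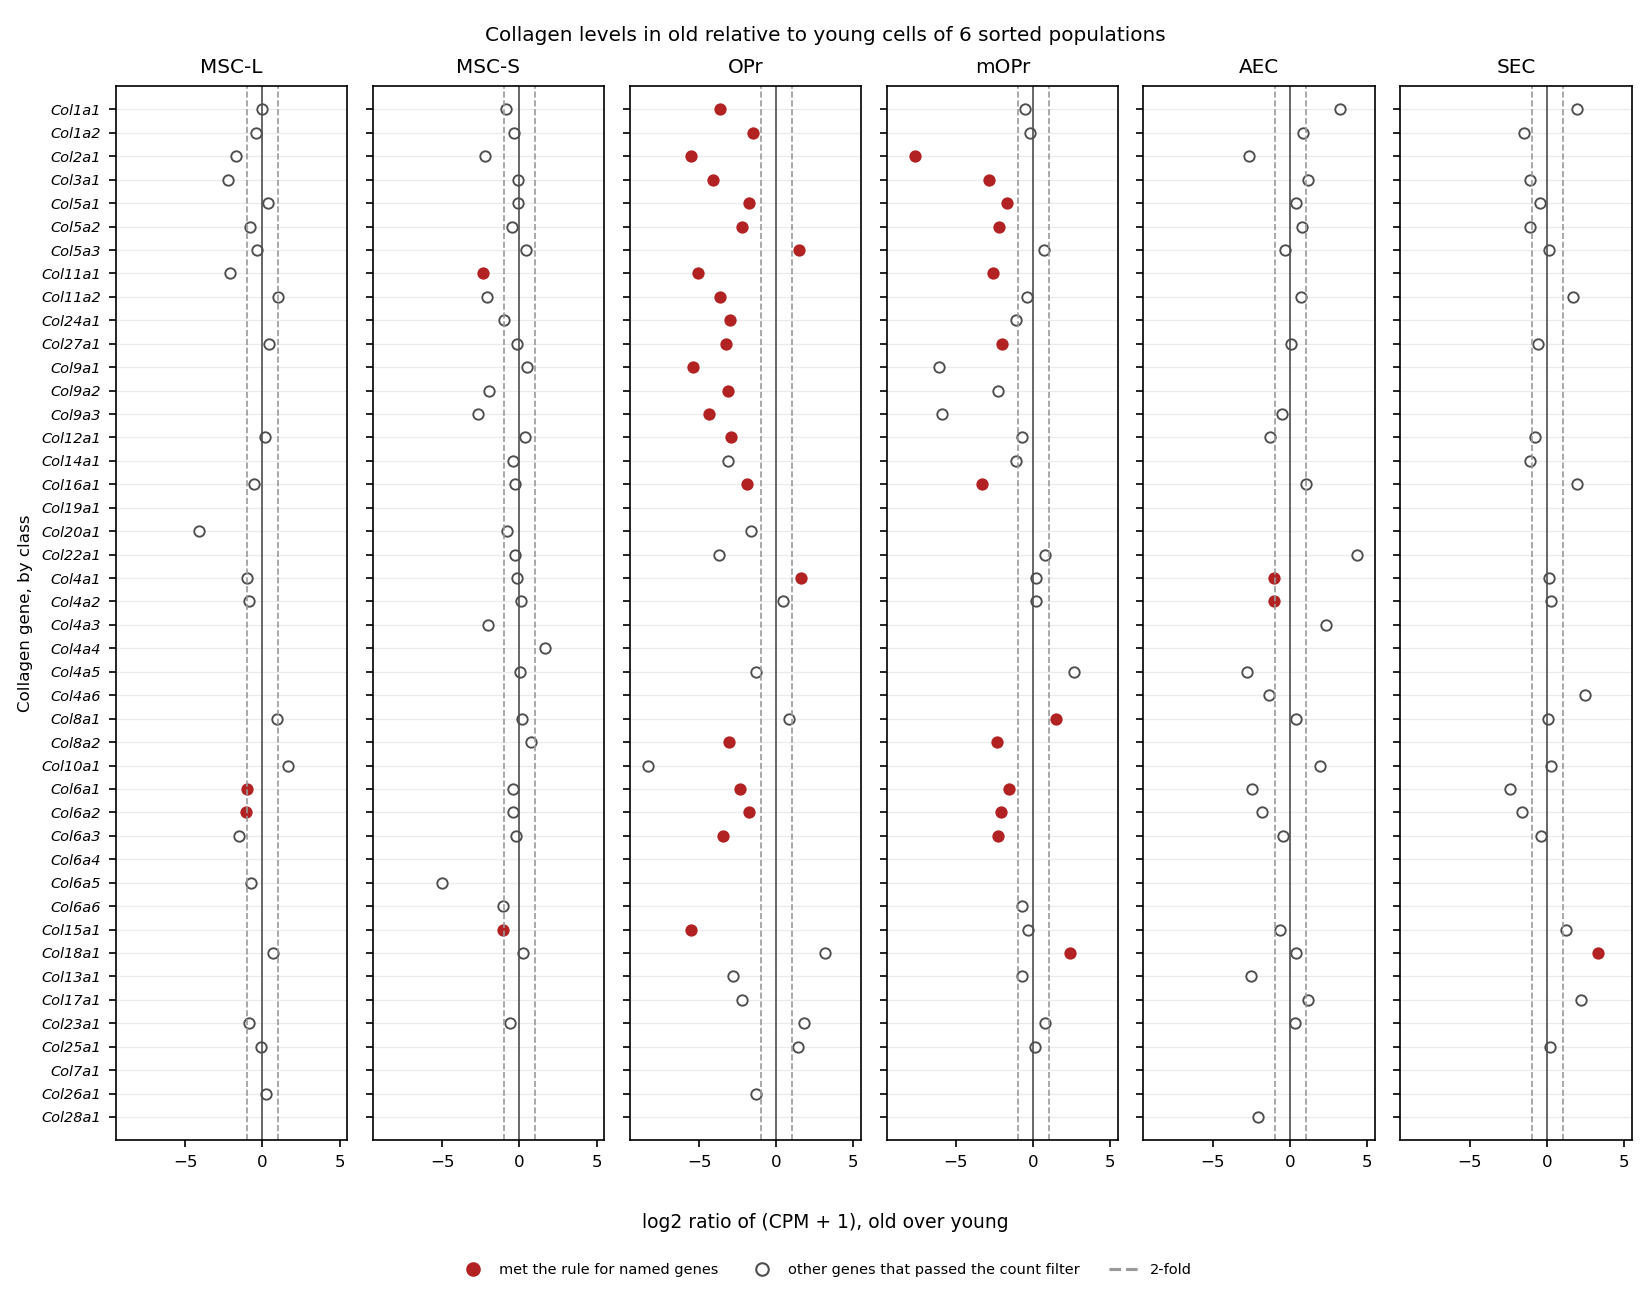
Log2 ratio of CPM + 1, old over young, on the x axis for each collagen that passed the count filter (y axis, by class) in the 6 populations, with filled points for the genes that met the rule for naming. In OPr 28 of 35 genes lie at or beyond 2-fold to the left, and in AEC the named points are *Col4a1* and *Col4a2*.

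The ICGS clusters were built from guide genes that include 20 collagens, 10 for the mesenchymal and 10 for the endothelial clusters, so their levels describe the clusters and test nothing. Among mesenchymal guide genes are *Col2a1*, *Col9a1*, *Col9a2*, *Col9a3*, *Col11a1*, *Col11a2*, *Col27a1*, *Col22a1*, *Col3a1* and *Col14a1*. M10, M11 and M13 are single cells and M14 holds 4, so clusters were ranked without them. Among the others, cluster M3 had the highest level of *Col2a1*, 58347 CPM, of *Col9a3*, 8662 CPM, and of *Col11a1*, *Col11a2*, *Col9a1*, *Col9a2*, *Col27a1*, *Col24a1*, *Col12a1*, *Col6a3*, *Col10a1* and *Col26a1*. All 16 cells of M3 and all 13 of M4 carried at least 5 of the 6 cartilage genes. *Col10a1* was at 498 CPM in M3, carried by 5 of 16 cells, and *Col16a1* was highest in M4 at 345 CPM. In the same ranking cluster M5 led for type I collagen, with *Col1a1* at 5703 CPM and *Col1a2* at 5146 CPM, carried by 45 and 48 of 65 cells. Neither of these type I genes guided the mesenchymal clusters.

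Among clusters M6 to M16, M7 led for *Col3a1* (7970.5 CPM, 15 of 15 cells) and *Col14a1* (1308 CPM, 15 of 15 cells), and M15 for *Col5a1* (877 CPM), *Col5a2* (923 CPM), *Col6a1* (2659 CPM), *Col6a2* (2465 CPM) and *Col15a1* (403 CPM). The 17 cells of M15 were all young and the 10 of M9 all old. M16 stood out for *Col22a1* at 1074 CPM in 34 of 36 cells, against 79.8 CPM in the next cluster, M5. The small clusters M10, M11, M13 and M14 were left out of this ranking too. M2 led for *Col8a1* at 921 CPM, with M1 next at 553 CPM.

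In the endothelial clusters *Col4a1* and *Col4a2* were highest in E5, at 1519 and 1850.5 CPM, then in E6 at 1419.5 and 1737 CPM. The arteriolar clusters differed, with *Col4a1* at 337 CPM in E3 and 1191 CPM in E4, and the sinusoidal cluster E7 had 373 CPM. E4 led for *Col18a1* at 374 CPM, carried by 49 of 59 cells, against 227 CPM in E3 and 11.1 CPM in E7. *Col8a1* split E3 from E7, at 393 and 2.70 CPM. E2, which the study reads as pericytes, led for *Col4a5* (109 CPM) and *Col4a6* (105 CPM), each carried by 5 of 8 cells, and for *Col19a1* (69.2 CPM, 2 of 8 cells). E1, read as doublets, had the highest *Col6a1* of the endothelial clusters, 688 CPM.

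**Figure D4:**
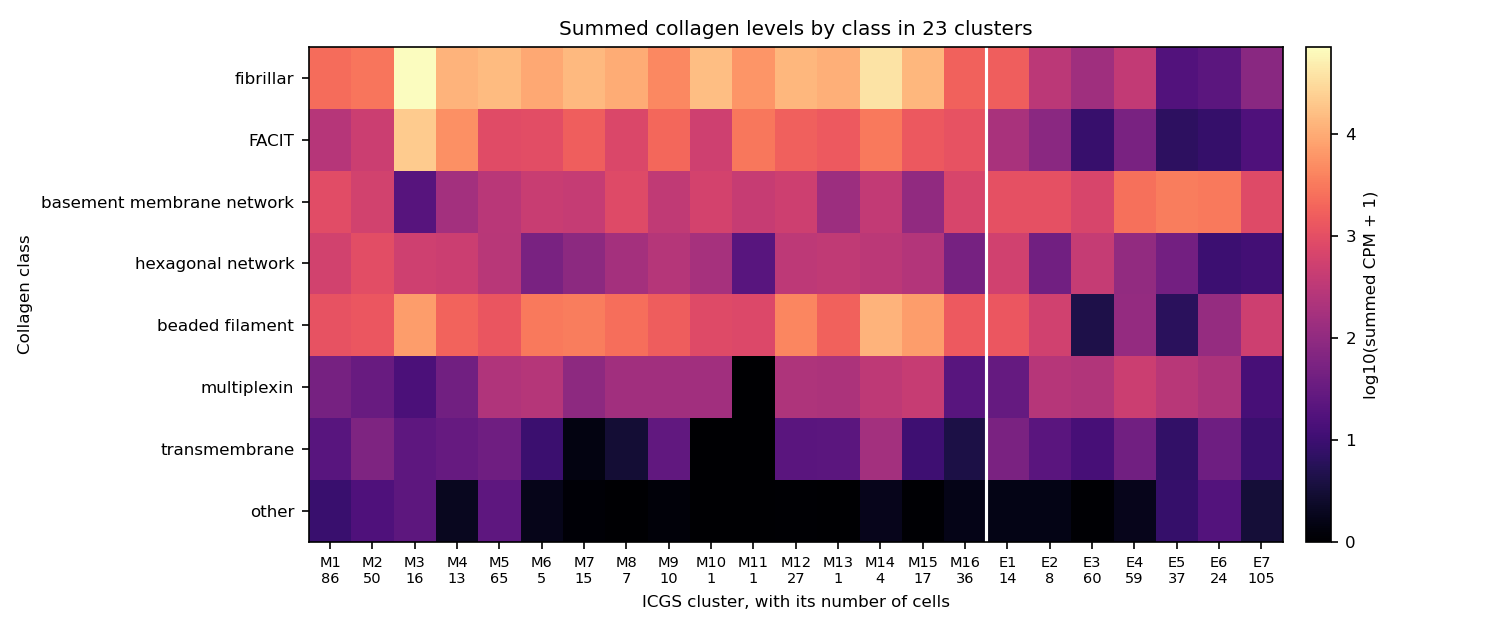
Summed level of each collagen class (y axis) in each ICGS cluster with its number of cells (x axis), with color giving log10 of summed CPM + 1, bright where high. The fibrillar and FACIT classes are brightest in M3 and the basement membrane class in E5, E6 and E4.

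Collagen chains need helpers to fold, be processed and be bound, and 3 lists of such genes were followed beside the collagens. Of 14 modifying and folding genes, *P4hb* (a prolyl hydroxylase subunit) ran from 564 CPM in old AEC to 1439 CPM in young OPr. *Serpinh1* (a collagen chaperone) ran from 247 to 1415 CPM in the same groups. All 14 passed the count filter in OPr, where none was at least 2-fold higher in old cells, against 25.6% of all genes, and 8 at least 2-fold lower, against 19.6%, with a median of -1.16 against 0.14 over all genes. In mOPr none of 14 was higher, against 24.7%, and 6 lower, against 19.8%, with a median of -0.91 against 0.11. In MSC-L none of 12 was past 2-fold, against 13.9% of all genes higher and 11.5% lower, and in MSC-S none of 14, against 8.65% and 11.1%, where the medians were -0.33 and 0.04 against 0.01 and -0.06 over all genes. In AEC 2 of 13 were lower, against 11.7% of all genes, and in SEC 2 of 13 higher, against 13.1%. *P3h1*, a prolyl hydroxylase, was at 256 CPM in young and 36.5 CPM in old OPr, and *P4ha3*, another prolyl hydroxylase subunit, at 29.8 and 0.24 CPM in young and old mOPr. *P4ha3* was at 0.0438 CPM in young MSC-L and 43.6 CPM in young MSC-S. Old OPr here include the 9 cells that carried markers of another lineage. What part these cells and the cluster make-up have in the OPr and mOPr values was not tested.

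Among 13 processing and crosslinking genes, *Sparc*, a collagen-binding matrix protein, ran from 1781 CPM in old AEC to 23494 CPM in young OPr, and *Pcolce*, an enhancer of procollagen cleavage, from 24.8 CPM in old AEC to 1421 CPM in old MSC-S. With age their median was -0.52 in OPr, -0.08 in mOPr, -0.30 in MSC-L, -0.11 in MSC-S, -0.27 in AEC and -0.93 in SEC, against 0.14, 0.11, 0.01, -0.06, -0.03 and 0.05 over all genes. In mOPr 3 of the 13 were at least 2-fold higher in old cells, against 24.7% of all genes, and 4 at least 2-fold lower, against 19.8%. *Pcolce2*, a relative of *Pcolce*, went from 163 to 0.4 CPM in young and old mOPr, and *Tll1*, which cleaves procollagen, from 33.7 CPM to no count. *Adamts14* went the other way, from 14.3 to 117 CPM. Of 8 receptors *Ddr2*, a kinase that binds fibrillar collagen, ran from 30.2 CPM in old AEC to 675 CPM in old MSC-L. Receptor medians with age lay between -0.22 in AEC and 0.23 in OPr. *Itga2*, which pairs with *Itgb1*, fell from 34.9 to 0.803 CPM in AEC, and *Itga1* went from 10.0 to 61.5 CPM in mOPr.

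Several collagens are neighbours in the genome. *Col4a1* and *Col4a2* lie head to head on chromosome 8 with no gap between them, and share 22 exon bases. *Col4a3* and *Col4a4* lie head to head on chromosome 1, 0.071 kb apart, and *Col4a5* and *Col4a6* on chromosome X, 1.31 kb apart. The first of these pairs was carried together in most AEC. Of 166 AEC 9 carried *Col4a3* alone, 2 *Col4a4* alone and none both, too few cells to tell whether this pair is expressed together. *Col3a1* and *Col5a2* lie tail to tail on chromosome 1, 24.6 kb apart, and both were high in MSC-S and young mOPr. *Col6a1* and *Col6a2* lie on chromosome 10, 85.2 kb apart, and *Col9a1* and *Col19a1* on chromosome 1, 9.21 kb apart, where *Col9a1* was at 2108 CPM and *Col19a1* at 0.307 CPM in young OPr. The exons of 13 collagens overlap those of another gene, such as *Col9a3* with *Tcfl5* over 234 bases, and counting without strand can mix their reads.

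Promoters are shown for *Col3a1*, highest in young MSC-S, and for *Col10a1* and *Col11a1*, both highest in young OPr, as a view of how unlike their sequences are. The stretches are the 250 bases before the gene start in the RefSeq table of build GRCm38.p6, which held 35 of the 44 collagens. In them 4 motifs were searched on both strands. The motif TATAAA was found in 12.4% of 32851 promoters of this length and in 5 of the 35 collagens, and CCAAT in 33.8% and in 13. The motif GGGCGG was found in 32.7% and in 21 collagens, and ACAAAG in 16.5% and in 4. The percentages are of single promoters, whereas a collagen was counted when any of its promoters held the motif. The shares are thus unlike in unit and show no enrichment. The 3 stretches lie on the plus strand, at chr1:45311288-45311537 for *Col3a1*, chr10:34389731-34389980 for *Col10a1* and chr3:114030290-114030539 for *Col11a1*. Capitals mark every match, on the strand printed except in *Col11a1*, where ATTGG is CCAAT on the other strand.
Col3a1: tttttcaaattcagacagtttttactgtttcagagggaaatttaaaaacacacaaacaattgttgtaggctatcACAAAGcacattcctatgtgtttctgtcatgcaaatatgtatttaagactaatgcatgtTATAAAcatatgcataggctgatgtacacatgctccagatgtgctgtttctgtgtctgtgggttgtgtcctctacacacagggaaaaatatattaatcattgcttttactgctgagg
Col10a1: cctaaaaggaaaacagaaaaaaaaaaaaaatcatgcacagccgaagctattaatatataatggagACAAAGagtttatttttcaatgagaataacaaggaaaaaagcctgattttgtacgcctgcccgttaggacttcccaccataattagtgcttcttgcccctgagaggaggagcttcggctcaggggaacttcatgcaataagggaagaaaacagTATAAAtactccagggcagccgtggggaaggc
Col11a1: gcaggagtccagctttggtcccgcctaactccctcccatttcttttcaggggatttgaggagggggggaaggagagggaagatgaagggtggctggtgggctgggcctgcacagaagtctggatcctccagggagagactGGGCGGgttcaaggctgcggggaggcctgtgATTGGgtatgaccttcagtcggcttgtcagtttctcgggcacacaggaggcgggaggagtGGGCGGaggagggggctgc
G and C made 35.2% of the *Col3a1* stretch, 41.6% of the *Col10a1* stretch and 62.4% of the *Col11a1* stretch, against a median of 52.4% over all promoters. *Col10a1* has TATAAA starting 32 bases before the end of its stretch, *Col3a1* has it 117 bases before the end, and both hold ACAAAG. *Col11a1* holds GGGCGG at 2 places, with CCAAT between them on the other strand. A match describes letters and shows no binding.

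Each group is 1 sample whose cells cannot be tied to mice, so a difference between ages or populations cannot be told apart from a difference between mice. Most rare collagens rest on a few cells, and members that passed the count filter are not all members.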

How the data were processed

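The counts were made by the authors before deposition: their methods name alignment with GSNAP version 2015-09-29 to GRCm38.p4 and counting with HTSeq on Ensembl 81 without strand, so reads of overlapping genes can mix. The deposited counts were read without change, repeated symbols were summed, and spike-ins were not analysed here. Levels are CPM of nuclear counts, and ratios use a pseudocount of 1 CPM (0.1 as an alternative). A gene passed with 100 counts over both groups in 5 cells, and a cell carried it at 10 CPM. Named collagens had 1000 counts, 25% of cells carrying, a 2-fold difference, and 1 direction in the library-number ranges with 5 cells of each group. Alternatives were means over cells, thinning to 100000 counts (7 cells left out), single ranges, no filter, and leaving out top cells, other identities or other lineages. Doublets were not called, and cells with 7 of 15 hematopoietic, or 5 of 10 endothelial or mesenchymal markers of another lineage, were counted. Members and lists were chosen with earlier results of these data known. The code was tested on simulated data, where it recovered the direction of all 200 changed genes in each of the pair of comparisons simulated. Those genes were at 10 CPM or more and changed by 2 on the log2 scale, up or down. The simulated counts held Poisson error but no other spread between cells. Recovery there does not speak to ratios near 2-fold or to genes whose counts lie in few cells. The code ran on matplotlib 3.10.9 for figures and, for tables, scipy 1.17.1, pandas 2.3.3 and numpy 2.4.6 under Python 3.11.15.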

Additional observations from a re-analysis of the deposited data

Results flagged for a closer look

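*Col4a1* was set apart because it was at least 2-fold higher in old than young OPr (log2 ratio 1.61) and at least 2-fold lower in old than young AEC (-1.04), a distance of 2.65 between populations that moved in opposite directions. Each ratio fell short of 2-fold under an alternative. In OPr it was 0.57 without clusters M3 and M4, and in AEC -0.64 in library-number range 2. The difference between the populations was not tested.

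Each age of a population is 1 sample, so mice and ages cannot be told apart, and intervals cover counting error alone. Each of the 6 sorted populations differs in cluster make-up between ages. Reads of overlapping genes were counted without strand, and no protein was measured.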

How the results depend on the processing

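No paired analysis was possible because the numbers in the titles name cells and not mice. Counts of collagens at least 2-fold apart moved as follows, and the cause was not tested. In thinned cells, those higher with age went from 7 to 3 in SEC, 3 to 5 in mOPr, 5 to 3 in OPr, 1 to 0 in MSC-S and 2 to 1 in MSC-L, and those lower from 10 to 3 in MSC-S and 10 to 5 in AEC. Between young AEC and SEC thinning took 7 higher to 4 and 11 lower to 6. As a mean over cells, MSC-S had 2 higher (from 1) and 5 lower (from 10). In range 1 alone, MSC-L had 4 lower (from 7), MSC-S 6 higher (from 1) and 4 lower (from 10), OPr 2 higher (from 5) and AEC 3 higher (from 7). In range 2 alone, MSC-S had 0 higher, AEC 1 lower (from 10) and young MSC-L over MSC-S 3 higher (from 5), and in range 3 alone AEC had 4 lower. Without the highest cell of each group, MSC-L had 4 higher, MSC-S 0, AEC 4, young MSC-L over MSC-S 3 and young AEC over SEC 4. In cells whose identity is that of their sort, MSC-S had 6 lower, OPr 2 higher, SEC 2 higher and 3 lower (from 6), and young AEC over SEC 4 higher. Without cells of another lineage, young AEC over SEC had 6 lower. In alternatives chosen after seeing the data, OPr had 3 higher without M3 and M4, and 2 without M1, M2 and cells of another lineage. With no filter, MSC-L had 12 lower, mOPr 6 higher (from 3), young MSC-L over MSC-S 8 higher and young AEC over SEC 11 higher. The 28 lower in OPr, 16 in mOPr and 19 in young MSC-L over MSC-S never moved by more than 1.5-fold. Among the ratios with age that the rule named, those that changed sign were *Col5a3* in OPr (1.46 to -4.33 in cells whose identity is that of their sort, and -3.90 without M1, M2 and other lineages, each with 2 old counts), *Col8a1* in mOPr (1.46 to -0.53 and -0.30 in the same alternatives), *Col8a2* in mOPr (-2.33 to 0.62 in cells whose identity is that of their sort) and *Col18a1* in SEC (3.31 to -0.35 in cells of E7, a cluster it helped to define). Of all ratios of collagens that passed, 8 of 25 changed sign under at least 1 alternative in MSC-L, 23 of 34 in MSC-S, 5 of 35 in OPr, 14 of 32 in mOPr, 12 of 29 in AEC and 7 of 23 in SEC, and 4 of 34 and 2 of 22 between populations. At least 2-fold in all cells were 2, 3, 3, 3, 4 and 2 of those with age, *Col1a1* and *Col3a1* in AEC among them (3.25 to -2.03 and 1.16 to -4.90 in range 1), and 3 of those between young MSC-L and MSC-S, with *Col20a1* going from 1.81 to -2.28 in range 1. The summed collagen level changed sign in MSC-S (-0.31 to 0.65 in range 1) and in SEC (-0.04 to 0.30 without cells of another lineage, 0.06 as a mean over cells, 0.06 in thinned cells and 0.03 in cells of E7). Mesenchymal cells have no value in range 3, SEC have none in ranges 1 and 2, and ranges with fewer than 5 cells of a group were not compared.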
